A study of Mus musculus with 6 samples.

Results

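Genes of the erythroid, megakaryocyte and mast cell lineages were followed in Lhx2 cells after 2 h of transforming growth factor β1 (TGF-β1). The set holds 33 genes, 10 erythroid, 12 megakaryocyte and 11 of mast cells and basophils, picked for the blood lineages that the transcription factors Gata1 and Gata2 drive. A probe was assigned through the RefSeq accession that the array files give. On this basis 30 of the 33 genes had a probe, and 29 were bright enough to test, among 29161 genes and transcripts tested in all. Ahsp, Gp6 and Tpsab1 had no probe by this route and were not analysed here. The 6 microarrays held 2 groups of 3: Lhx2 cells given 10 ng/ml of TGF-β1 over 2 h, then untreated Lhx2 cells. Lhx2 cells are a mouse line resembling blood stem and progenitor cells, which grows because the homeobox gene Lhx2 was introduced into it. Both groups were grown with stem cell factor at 100 ng/ml and human interleukin 6 at 10 ng/ml, and both were starved overnight, with 0.5% serum albumin replacing the 5% calf serum. RNA came from 3 independent harvests, and arrays of the same replicate number are treated as a pair.

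Red cells, platelets and mast cells share progenitors in which GATA factors open lineage genes together with partners such as FOG1, TAL1 and KLF1. Gata2 acts early, in stem cells, progenitors and mast cells, and Gata1 takes its place as red cells and megakaryocytes mature. Erythroid genes build haemoglobin, haem and the red cell membrane. Megakaryocyte genes build platelet receptors and granule contents. Mast cell genes supply proteases, histamine and the IgE receptor. TGF-β1 is known as a brake on the growth of early blood progenitors.

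Signals are given on a common scale, on which the 75th percentile of every array is 932.2. They can be compared between arrays for one probe, and not between probes. Before scaling, this percentile ran from 794.2 to 1030.8, and 82.8% to 90.3% of probes were well above background. All 10 markers of blood progenitors on a fixed list, among them Kit, Cd34, Myb and Lhx2, were well above background on all 6 arrays. The arrays lay on 2 slides. Slide 1 held TGF-β1 replicate 1 and untreated replicates 1 and 3, and slide 2 held the others. Replicate 3 stood apart from replicates 1 and 2 in the markers of other cell types described below. In bulk RNA, fewer cells of a type and less RNA per cell cannot be told apart.

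None of the 29 genes passed the test for a change after TGF-β1. The tool was limma with Benjamini-Hochberg adjustment over all genes and transcripts, at a threshold of 0.05. It called 0 of 29, against 0.254% of all genes tested, and again 0 of 29 against 0.672% with the replicate number as a block. At an unadjusted p under 0.05 the counts were 3 of 29, against 5.77% of all genes tested, and 7 of 29 with the block, against 10.9%. The median log2 change was -0.01 over the 29 genes, as it was over all genes tested, with 13 values above 0 and 16 below. The median was 0.07 for erythroid genes, -0.06 for megakaryocyte genes and -0.07 for mast cell genes. TGF-β1 and untreated arrays did not overlap for 3 of the 29 genes, Selp, Ms4a2 and Alas2, all of them lower after TGF-β1. Over all genes tested this held for 10.4%, so the count of 3 is close to the background. The median standard error over the 29 genes was 0.23 without the block and 0.13 with it. The 95% confidence intervals of the 29 changes reached from -2.66 to 1.61 without the block and from -1.70 to 0.91 with it, so a change that missed the threshold was not shown to be absent.

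**Figure D1:**
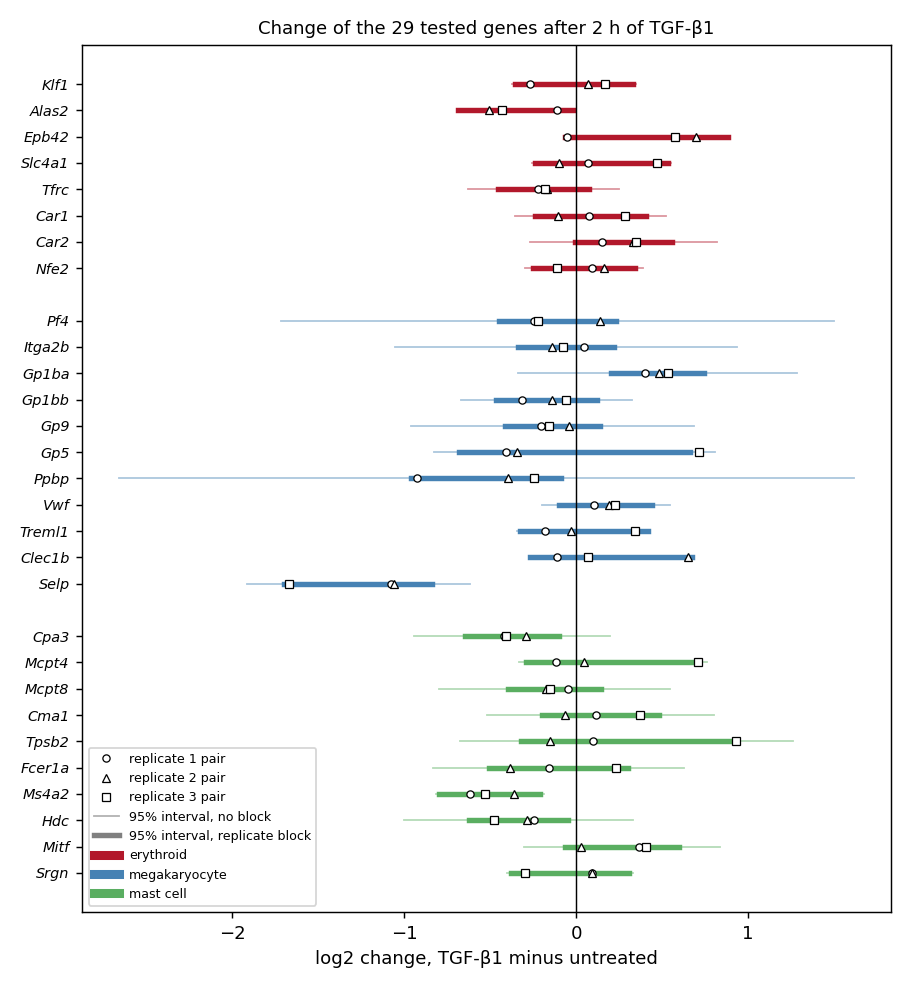
The plot of changes by gene shows the log2 change, TGF-β1 minus untreated, of the 29 tested genes, coloured by lineage. Open symbols are the 3 pairs, thin lines the 95% confidence interval of the fit without a block, and thick lines that with the replicate block. Selp sits furthest from 0, at -1.27, and the 28 other genes lie between -0.52 and 0.47.

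The largest change was that of Selp, which encodes P-selectin, an adhesion receptor of platelet granules and endothelium. Its signal was 2921, 2022 and 1533 on the TGF-β1 arrays of replicates 1, 2 and 3, against 6166, 4204 and 4867 on the untreated arrays. All 3 TGF-β1 arrays lay below all 3 untreated arrays. The log2 change was -1.27 (SE 0.27, 95% confidence interval -1.91 to -0.62), which is 2.41-fold lower. It did not pass (limma adjusted p = 0.222, and 0.0746 with the replicate block). The pair differences were -1.08, -1.06 and -1.67. A second Selp probe had 635, 407 and 348 after TGF-β1, against 1196, 1005 and 1042 untreated, and gave the same log2 change of -1.27. Within slide 1 the change was -0.91, within slide 2 it was -1.26, and with slides as blocks it was -1.08 (limma adjusted p = 0.156). Across the other settings tried, the value ran from -1.51 to -1.05 and the adjusted p from 0.0575 to 0.987. Endothelial cells also carry P-selectin. Of 10 endothelial markers, 9 could be tested and 0 passed. All 9 were well above background on all 6 arrays, and their summed signal was 2119 to 2415 after TGF-β1 and 1804 to 2309 untreated. The part of endothelial cells in the Selp value was not tested.

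The receptor genes of the von Willebrand factor complex, Gp1ba, Gp1bb, Gp5 and Gp9, did not pass. Gp1ba, the ligand-binding chain, had 253, 221 and 136 after TGF-β1, against 191, 158 and 94.1 untreated. It was higher after TGF-β1 within each pair, by 0.40, 0.48 and 0.54 on the log2 scale, although the groups overlapped. The fitted change was 0.47 (SE 0.34, limma adjusted p = 1; SE 0.10 and adjusted p = 0.198 with the block). Gp9 had -0.14 (SE 0.34), Gp1bb -0.17 (SE 0.21) and Gp5 -0.01 (SE 0.34), and none of the 3 passed. The ligand gene Vwf had 1166, 967 and 1088 after TGF-β1, against 1086, 848 and 928 untreated. Its change was 0.17 (SE 0.16), and a second probe gave 0.18.

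Ppbp, the gene of the platelet chemokine CXCL7, had 1213, 1844 and 333 after TGF-β1, against 2301, 2422 and 395 untreated. It was lower in every pair, by -0.92, -0.39 and -0.25, but the fitted change of -0.52 had an SE of 0.89 (limma adjusted p = 1; SE 0.17 and adjusted p = 0.367 with the block). Pf4, which encodes platelet factor 4, another granule chemokine, had 52040, 55988 and 14714 after TGF-β1, against 61564, 50740 and 17164 untreated. Its change was -0.11, with a 95% confidence interval from -1.71 to 1.50 that narrowed to -0.45 to 0.23 with the block. Within slides the change of Ppbp was 0.35 and -1.63, but slide 1 held only the untreated array of replicate 3 and slide 2 only its TGF-β1 array, so these values mix treatment with the low signal of that replicate. For both chemokines replicate 3 was the lowest array of each group. Itga2b, the αIIb chain of the fibrinogen receptor and a marker of the earliest megakaryocyte progenitors, had -0.06 (SE 0.42). Treml1, a platelet granule receptor, had 0.05 (SE 0.16). Clec1b, the podoplanin receptor, was dim, with 13.1, 18.1 and 17.0 after TGF-β1 against 14.2, 11.5 and 16.3 untreated. It was well above background on 5 of the 6 arrays, and its change was 0.20 (SE 0.20).

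Erythroid genes showed small differences in both directions, 5 above 0 and 3 below among the 8 tested. Alas2, the erythroid enzyme that starts haem synthesis, had 37.2, 32.2 and 30.4 after TGF-β1, against 40.1, 45.8 and 41.0 untreated. All TGF-β1 arrays were below all untreated arrays, and the change was -0.35 (SE 0.14, limma adjusted p = 0.841; 0.436 with the block). Epb42, which encodes the membrane skeleton protein 4.2, had 27.8, 43.7 and 39.4 after TGF-β1, against 28.8, 26.9 and 26.4 untreated. Its change of 0.41 (SE 0.20, limma adjusted p = 0.985) did not pass. The pair differences were -0.05, 0.70 and 0.58, and all 3 untreated arrays were at or below 28.8. A second Epb42 probe was not well above background on any array.

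Klf1, the erythroid master regulator, was well above background on all 6 arrays, and its groups overlapped. It had 41.9, 53.3 and 54.8 after TGF-β1, against 50.5, 50.8 and 48.8 untreated. The change was -0.01, with a 95% confidence interval from -0.37 to 0.35. Slc4a1, the anion exchanger band 3, had 145, 160 and 191 after TGF-β1, against 138, 171 and 138 untreated (log2 change 0.15, SE 0.17). Nfe2, a subunit of the NF-E2 factor used by red cells and megakaryocytes alike, ran from 25955 to 28518 after TGF-β1 and from 23202 to 29473 untreated. Its change was 0.05 (SE 0.14).

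The carbonic anhydrase genes Car1 and Car2, neighbours on chromosome 3 with 1 protein-coding gene between them, had changes of 0.08 (SE 0.18) and 0.28 (SE 0.23). Car2 had 1771, 1345 and 1297 after TGF-β1, against 1595, 1070 and 1019 untreated, so it was higher in each pair while the groups overlapped. Tfrc, the transferrin receptor that brings in iron, had 9569, 8434 and 11410 after TGF-β1, against 11144, 9486 and 12904 untreated. It was lower in each pair, by -0.22, -0.17 and -0.18, and did not pass (SE 0.18, limma adjusted p = 1; 0.607 with the block). Ermap, a red cell membrane protein of the immunoglobulin family, was well above background on 1 of 3 TGF-β1 arrays and 0 of 3 untreated arrays. It was not tested, and no fold change is given.

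Among the 10 mast cell genes tested, Ms4a2, Cpa3 and Hdc had the largest differences, all 3 lower after TGF-β1. Ms4a2, the β chain of the high-affinity IgE receptor, had 86.9, 103 and 89.2 after TGF-β1, against 133, 132 and 129 untreated. All TGF-β1 arrays lay below all untreated arrays, and the untreated values were close together. The change was -0.50 (SE 0.13, 95% confidence interval -0.82 to -0.19), 1.42-fold lower, and it did not pass (limma adjusted p = 0.368; 0.203 with the block). Within slides it was -0.59 and -0.46. Fcer1a, the IgE-binding α chain, had -0.10 (SE 0.31), with pair differences of -0.16, -0.38 and 0.23.

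Cpa3, the mast cell carboxypeptidase, had 9957, 15254 and 9829 after TGF-β1, against 13319, 18673 and 13032 untreated. Hdc, the enzyme that makes histamine, had 2030, 2905 and 1606 after TGF-β1, against 2400, 3540 and 2234 untreated. Each was lower in all 3 pairs while the groups overlapped, and replicate 2 was the highest array of each group. The changes were -0.37 (SE 0.24; SE 0.10 and adjusted p = 0.299 with the block) for Cpa3 and -0.33 (SE 0.28; SE 0.11 and adjusted p = 0.386 with the block) for Hdc, by limma. Srgn, the proteoglycan core that holds granule contents, ran from 103304 to 126035 after TGF-β1 and from 101517 to 126698 untreated, a change of -0.04 (SE 0.15).

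The remaining proteases did not pass. Tpsb2, a tryptase, had 73.4, 137 and 173 after TGF-β1, against 68.7, 152 and 90.7 untreated. Replicate 3 gave most of its positive value, with pair differences of 0.10, -0.15 and 0.93. The chymases Cma1 and Mcpt4 had 0.14 (SE 0.28) and 0.21 (SE 0.23), and Mcpt8, a protease of basophils, had -0.13 (SE 0.28). Mitf, the transcription factor of mast cells and pigment cells, had 0.27 (SE 0.24), and a second probe gave 0.15.

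The clearest differences among these genes lay between the harvests. In a moderated F test of the replicate number, with treatment in the model, 3 of the 29 genes passed, all of them megakaryocyte genes, against 3.11% of all genes tested. They were Ppbp (limma adjusted p = 0.0122), Pf4 (0.0136) and Itga2b (0.0333). With both treatments averaged, Ppbp was 5.18-fold higher in replicates 1 and 2 than in replicate 3 (log2 difference of replicate 3 from the others -2.37, SE 0.18). Pf4 was 3.46-fold higher there (-1.79, SE 0.14) and Itga2b 1.97-fold higher (-0.98, SE 0.11). Itga2b had 3341, 2166 and 1351 after TGF-β1, against 3241, 2390 and 1422 untreated, so the 3 replicate numbers differed from each other in both groups. The low values of replicate 3 were seen within each slide. On slide 2, TGF-β1 replicate 3 differed from TGF-β1 replicate 2 by -1.93 for Pf4, -2.47 for Ppbp and -0.68 for Itga2b. On slide 1, untreated replicate 3 differed from untreated replicate 1 by -1.84 for Pf4, -2.54 for Ppbp and -1.19 for Itga2b.

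Pf4 and Ppbp passed without each array in turn. Itga2b did not pass without TGF-β1 replicate 1 (limma adjusted p = 0.17), TGF-β1 replicate 2 (0.105), untreated replicate 1 (0.115) or untreated replicate 2 (0.12). Without TGF-β1 replicate 3, and likewise without untreated replicate 3, the count of members passing was 13 of 29 in place of 3. The count over all 29161 genes tested also rose, from 906 to 6622 and 8294, so the rise was not particular to the members. With both arrays of replicate 3 left out, the difference between replicates 1 and 2 did not pass for Pf4 (limma adjusted p = 0.625) or Ppbp (0.176). It passed for 9 of the 29 members, among them Itga2b, Selp, Cpa3 and Hdc. Over all genes tested it passed for 9104 of 29161, which is a like share.

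**Figure D2:**
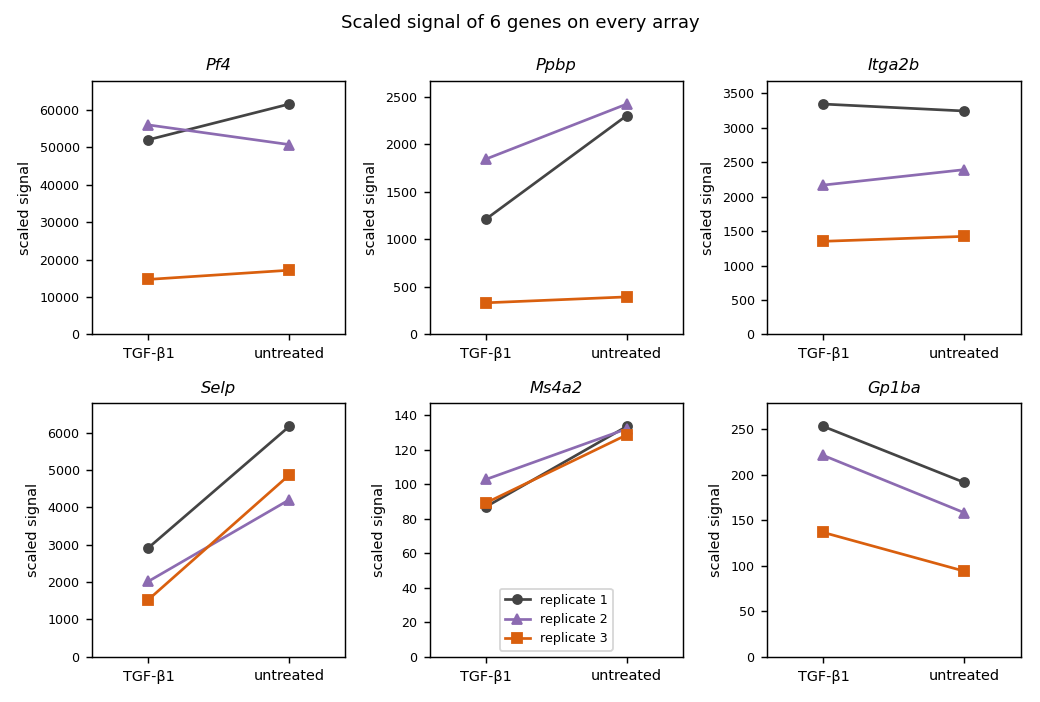
The plot of signal on every array shows 6 genes, with TGF-β1 arrays left and untreated arrays right and a line joining each pair. Axes start at 0. In Pf4, Ppbp and Itga2b replicate 3 lies below the others in both groups, whereas in Selp and Ms4a2 the TGF-β1 arrays lie below the untreated ones.

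Other members followed the same replicate without passing. Both arrays of replicate 3 were below the other 4 arrays for 7 of the 29 genes, against 7.78% of all genes tested. These were Pf4, Ppbp, Itga2b, Gp1ba (-0.84, SE 0.11, limma adjusted p = 0.0567) and Gp9 (-0.87, SE 0.11, adjusted p = 0.0568) among 11 megakaryocyte genes, and Mcpt8 (-0.70, SE 0.11) and Fcer1a (-0.72, SE 0.16) among 10 mast cell genes. Both arrays of replicate 3 were above the others for 2 genes, Tfrc and Mitf, against 8.84% of all genes tested. Vwf, by contrast, had a difference of -0.01 (SE 0.11), and the 8 erythroid genes ran from -0.30 to 0.34. The median difference was 0.09 for erythroid, -0.42 for megakaryocyte and -0.06 for mast cell genes, beside 0.04 over all genes tested. Neighbouring genes could share the pattern or not. Pf4 and Ppbp lie next to each other on chromosome 5 with no protein-coding gene between them and were both low in replicate 3. Mcpt4 and Mcpt8 are equally close on chromosome 14, and their differences were 0.34 (SE 0.20) and -0.70.

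**Figure D3:**
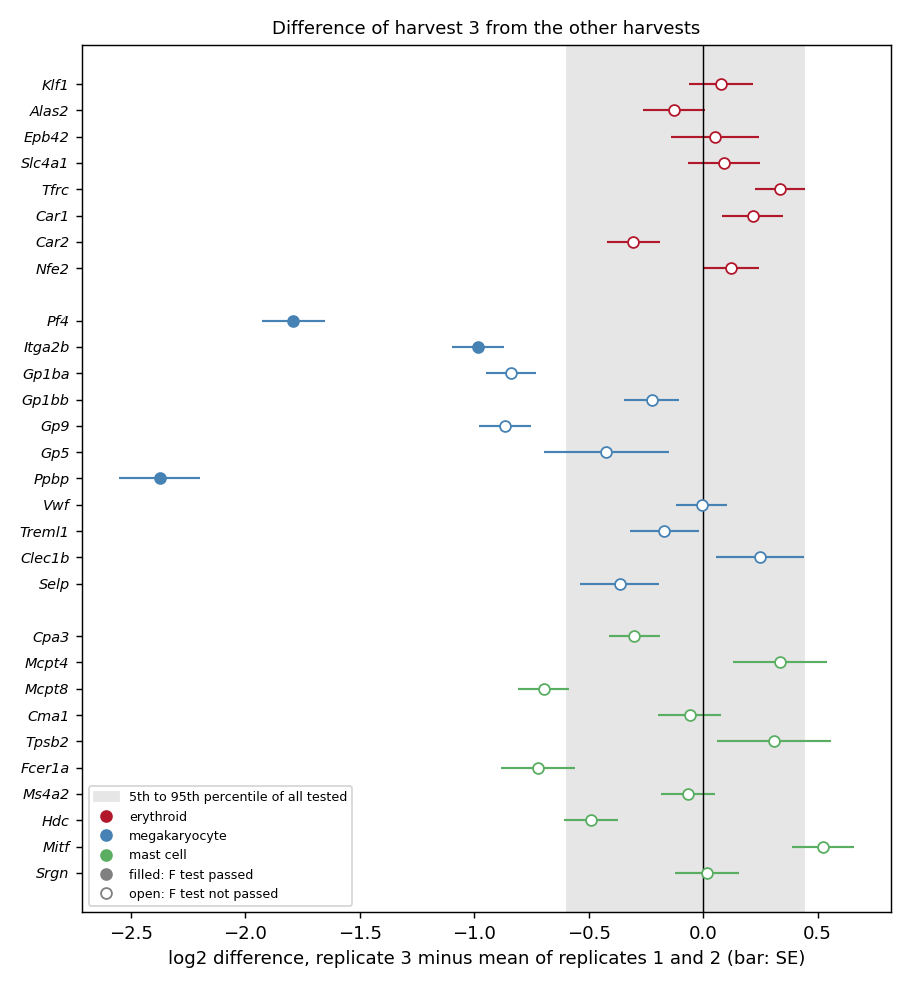
The plot of harvest differences gives, for the 29 genes, the log2 difference of replicate 3 from the mean of replicates 1 and 2, with bars of 1 SE and the 5th to 95th percentile of all genes tested, -0.59 to 0.44, in grey. Filled points passed the F test. Ppbp, Pf4 and Itga2b lie furthest left, with Gp9 and Gp1ba next.

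Markers of other cell types differed between the same harvests. Stromal markers, 12 of 12 of them tested and 11 well above background on all 6 arrays, summed to 24670, 63725 and 2092 after TGF-β1 and to 21380, 65499 and 1785 untreated in replicates 1, 2 and 3. Of these, 8 passed the F test, and both replicate 3 arrays were lowest for 9. Over all genes tested 3.11% passed it, while both replicate 3 arrays were lowest for 7.78% and highest for 8.84%. Decorin (Dcn), a defining matrix gene of fibroblasts, had 538 and 482 in replicate 3, against 14227 to 40637 on the other arrays. Within each group the stromal sum was higher in replicate 2 than in replicate 1. The part of stromal RNA in the Itga2b values was not tested. The 11 neutrophil markers tested had 8 members highest in replicate 3, with 6 passing, and summed to 604120 to 681130 there against 532266 to 559467 on the other arrays. The 9 monocyte and macrophage markers tested had 3 passing, 5 highest and 3 lowest in replicate 3. Their sum was 162907 to 184563 there, against 141041 to 147987 on the other arrays. Lyz2 alone made up 79% to 84.3% of that sum, and Mpo 53.2% to 62.6% of the neutrophil sum. The summed signal of the 11 megakaryocyte genes was 20161 and 25839 in replicate 3, against 62301 to 76166 elsewhere, but Pf4 made up 66.4% to 86.6% of it on every array. Without Pf4 the sum of the other 10 genes was 5447 after TGF-β1 and 8675 untreated in replicate 3, against 8685 to 14601 on the other arrays, so untreated replicate 3 was close to TGF-β1 replicate 2. Whether a different mix of cells took part in the low platelet genes of replicate 3 was not tested.

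**Figure D4:**
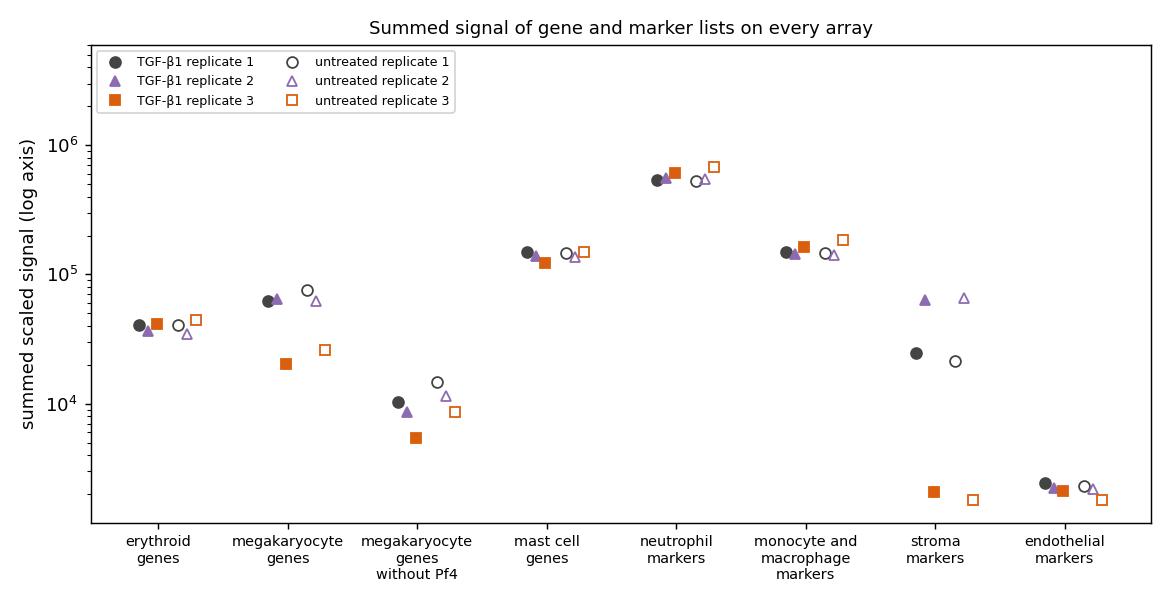
The plot of summed signals shows, on a log axis, the sum of scaled signals over each list on every array, with TGF-β1 arrays filled and left of the untreated arrays, which are open. Stromal markers are lowest and neutrophil markers highest in replicate 3; the low megakaryocyte sum there is mostly Pf4, and without Pf4 the arrays of replicate 3 stand much less apart.

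The promoters of the 3 genes that differed between harvests, and that of Selp, are shown because these 4 genes carry the differences above. Each window runs from 250 bases before to 50 after the annotated start and comes from RefSeq (GRCm38.p6), written 5′ to 3′ on the strand of the gene. The windows are chr5:90772185-90772484 (plus strand) for Pf4, chr5:90768268-90768567 (plus) for Ppbp, chr11:102469834-102470133 (minus) for Itga2b and chr1:164115014-164115313 (plus) for Selp. Capitals mark GATA words (AGATAA or AGATAG or TGATAA or TGATAG) and ETS words (AGGAAG or CGGAAG), on either strand. GATA factors bind the first kind, and ETS factors such as FLI1, which act with GATA1 on platelet genes, bind the second.
Pf4: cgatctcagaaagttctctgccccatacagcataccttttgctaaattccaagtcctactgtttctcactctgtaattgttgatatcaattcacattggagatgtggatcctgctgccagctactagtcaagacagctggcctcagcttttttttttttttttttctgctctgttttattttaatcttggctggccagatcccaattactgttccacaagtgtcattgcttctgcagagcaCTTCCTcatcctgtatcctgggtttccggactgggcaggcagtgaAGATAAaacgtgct
Ppbp: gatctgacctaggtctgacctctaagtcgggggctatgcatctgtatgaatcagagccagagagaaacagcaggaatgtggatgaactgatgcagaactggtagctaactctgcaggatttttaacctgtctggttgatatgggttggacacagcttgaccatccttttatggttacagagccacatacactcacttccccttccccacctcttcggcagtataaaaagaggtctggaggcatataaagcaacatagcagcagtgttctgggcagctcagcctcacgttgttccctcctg
Itga2b: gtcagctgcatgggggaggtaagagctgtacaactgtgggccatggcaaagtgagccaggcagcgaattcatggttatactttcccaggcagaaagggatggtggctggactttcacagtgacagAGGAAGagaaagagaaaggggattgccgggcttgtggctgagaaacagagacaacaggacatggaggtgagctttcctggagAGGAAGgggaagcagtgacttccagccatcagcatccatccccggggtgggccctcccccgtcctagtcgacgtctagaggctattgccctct
Selp: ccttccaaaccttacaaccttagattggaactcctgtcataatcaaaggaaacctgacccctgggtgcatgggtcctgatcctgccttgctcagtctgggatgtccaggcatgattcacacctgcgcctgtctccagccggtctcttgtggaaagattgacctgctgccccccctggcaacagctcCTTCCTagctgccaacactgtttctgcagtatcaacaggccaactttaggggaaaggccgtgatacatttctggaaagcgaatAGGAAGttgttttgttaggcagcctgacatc

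The Pf4 window held 1 GATA and 1 ETS word, those of Itga2b and Selp 0 GATA and 2 ETS words each, and that of Ppbp neither. A promoter was in the table for 25 of the 33 genes, and 17 of them had a GATA word in at least 1 window: 4 of 5 erythroid, 6 of 11 megakaryocyte and 7 of 9 mast cell genes. An ETS word was found for 14 of the 25, 7 of them megakaryocyte genes. Over all 32851 promoter windows of this length, 29.8% held a GATA word and 46.5% an ETS word. The genes with several GATA words were Gp1ba, Gp5 and Ms4a2 with 3 each and Clec1b with 2, and 1 of the 3 Mitf windows also had 2. Of the genes with 3 words, Gp1ba had a log2 change of 0.47 after TGF-β1, Ms4a2 of -0.50 and Gp5 of -0.01. None of these changes passed. These counts describe letters in a window and no test was made of them.

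Further genes of the same lineages were taken from fixed lists. Over all genes tested 0.254% passed, and 0.672% with the block. The lists were chosen with earlier results of these data known, so the counts below are not a test of the lists. Of 25 other erythroid membrane and globin genes tested 0 passed, with or without the block. At an unadjusted p under 0.05 by limma there were 4, against 5.77% of all genes tested. Their changes ran from -0.71 for Hemgn to 0.93 for Slc25a37, with 13 above 0, 12 below and a median of 0.01. Slc25a37 was higher in each pair and did not pass (limma adjusted p = 0.143, and 0.0517 with the block). Of 10 haem synthesis genes 1 rose, and 2 had an unadjusted p under 0.05 by limma. Abcb10, a transporter of the mitochondrial inner membrane needed for haem synthesis in red cells, had 890, 840 and 997 after TGF-β1, against 425, 420 and 437 untreated. The groups were far apart, and the change was 1.08 (SE 0.13, 2.12-fold, limma adjusted p = 0.0434). With slides as blocks the adjusted p was 0.0603, and with any 1 array left out it was 0.142 to 0.259 with a change of 1.02 to 1.14. The median of the haem list was -0.09, with 8 of 10 values below 0.

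Of 20 other megakaryocyte and platelet genes tested, 1 fell and 0 rose, and 1 fell and 1 rose with the block. Over all genes tested the shares passing were 0.254% and 0.672%. At an unadjusted p under 0.05 by limma there were 6 of the 20, against 5.77% of all genes tested. TGF-β1 and untreated arrays did not overlap for 7 of the 20, against 10.4% of all genes tested. The fall was that of Rgs18, which restrains G-protein signalling in platelets, with 1852, 1669 and 1658 after TGF-β1 against 6384, 4762 and 4807 untreated (log2 change -1.61, SE 0.16, limma adjusted p = 0.0263). With any 1 array left out its adjusted p was 0.0697 to 0.169. Lat, an adaptor of T cells, platelets and mast cells, had 797, 698 and 508 after TGF-β1, against 324, 315 and 205 untreated. It passed only with the block (log2 change 1.25, limma adjusted p = 0.0347; SE 0.25 and adjusted p = 0.193 without it). Of 26 other mast cell and basophil genes tested, 1 rose and 0 fell, and only 1 had an unadjusted p under 0.05 by limma. This was Il6, which encodes a cytokine that mast cells and many other cells release, with 1082, 1266 and 1283 after TGF-β1, against 429, 538 and 419 untreated (log2 change 1.39, SE 0.16, 2.63-fold, limma adjusted p = 0.037). Within slides it was 1.35 and 1.24, and with any 1 array left out the adjusted p was 0.0695 to 0.243. The median changes of the 2 lists were -0.03 and 0.02.

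The GATA factors themselves also did not pass. Gata1 had a log2 change of 0.01 (SE 0.23). Gata2 had 0.76 (SE 0.25, limma adjusted p = 0.626, and 0.111 with the block). It was higher after TGF-β1 in each pair (0.78, 0.94 and 0.55), and its groups did not overlap, as for 10.4% of all genes tested. Zfpm1, which encodes FOG1, had 0.62 (SE 0.24, limma adjusted p = 0.805, and 0.132 with the block). It was higher in each pair (0.60, 0.75 and 0.50) while the groups overlapped.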

How the data were processed

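The 6 arrays were 1-colour Agilent arrays (design 014868, annotated on mm8), and the headers name the software as Feature Extraction 10.1.1.1. In the deposited files, the processed intensity is background-subtracted and spatially detrended within each array, per the file headers, and is not scaled between arrays. The authors' series matrix holds log2 values, used as an alternative. They follow the log2 median spot signal (r from 0.99951 to 0.99989), with column medians of 7.383 to 7.417. Of the tools behind that matrix, the submitters' processing notes name limma. Its centring and normalization are not stated there.

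Main values were log2 processed signal minus the 75th percentile of each array. Replicate spots of a probe were averaged, leaving out outlier spots, and 0 spots were saturated. Probes had to be well above background on at least 3 arrays (36382 of 41174), and a gene was represented by its brightest such probe. Accessions were named through RefSeq (GRCm38.p6, names and neighbours only). This gave a symbol to 23374 probes.

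The treatment test was a limma fit (version 3.58.1, R 4.3.3) over 29161 genes and transcripts without a block, and harvests were compared by a moderated F test with treatment in the model. Both tests were also run on simulated data, where small changes were mostly missed. Same-numbered arrays deviated together (correlation of deviations from group means 0.636, 0.786 and 0.557), so the number was taken to pair the samples. Different numbers had -0.736 to 0.0712, which is no separate support. Deviations sum to 0 within a group, so positive values for same numbers force negative values among different numbers. The labels give the numbers and the series design the independent harvests. P-values of the treatment fit without a block measure the spread between these harvests of one line. With the replicate block, and in the F test, harvest differences are in the model. Those p-values rest on how far the treatment difference varies between harvests. The number of arrays limits precision. Genes given on every array are those past a threshold, the 4 of each lineage with the largest change and those well above background on 1 to 5 arrays; a few more were chosen after their values were seen. The members and lists were chosen with earlier results of these data known. Alternatives were the replicate and slide blocks, normexp with offset 50, quantile normalization, the matrix values, other filters, the mean of probes, each array left out and, added after seeing the data, replicate 3 left out. The normexp alternative used the median spot signal, since the files used here carry no mean signal.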

Additional observations from a re-analysis of the deposited data

How the results depend on the processing

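The count of 0 members passing after TGF-β1 held under all 15 alternatives to the fit without a block, the replicate block among them, which does not show that the members did not change, since the intervals given above are wide. Of 434 member values recomputed, 47 in 18 genes had the other sign and none of the 434 passed; Selp, Ms4a2, Alas2, Cpa3 and Hdc kept 1 sign. Over all genes the count of 74 became 196 with the replicate block, 5 with normexp, 172 with the matrix values and 7 to 24 with 1 array left out. For the harvest test, the member count of 3 became 5 with the slide as a further block, 20 with normexp, 7 with quantile normalization, 10 with the matrix values, 5 with probes well above background on all 6 arrays, 2 to 13 with 1 array left out and 9 without replicate 3. Over all genes its count of 906 became 15925 with normexp, 1694 with the matrix values, 458 to 8294 with 1 array left out and 9104 without replicate 3. The cause was not tested. Pf4 and Ppbp passed in all of these settings except without replicate 3. The replicate block changed no member's call. Abcb10, Rgs18 and Il6 did not pass with normexp (adjusted p = 0.705, 0.418 and 0.393), and Abcb10 and Il6 did not without a filter on dim probes (0.0647 and 0.0532). Without replicate 3 and with the block they had 0.0583, 0.051 and 0.0521. Genes near background, such as Clec1b, Epb42 and Alas2, are limited by signal over background.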

Other observations

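Further lineage genes on the fixed lists passed the test between harvests and not that between treatment groups. Over all genes tested 3.11% passed the test between harvests. It was passed by 4 of 25 other erythroid genes and 0 of 10 haem synthesis genes. Of the other megakaryocyte and platelet genes 1 of 20 passed, and of the other mast cell and basophil genes 2 of 26. Aqp1, a water channel of red cells that fibroblasts and endothelium also carry, had 815, 3506 and 16.5 after TGF-β1 and 753, 3356 and 18.1 untreated in replicates 1, 2 and 3 (limma F test adjusted p = 0.00102). Rhd, a red cell membrane protein, had 27.4, 106 and 7.90 after TGF-β1 and 31.3, 78.4 and 4.52 untreated (adjusted p = 0.00891). The replicate 3 values of Rhd are near background, so the size of its difference between harvests is uncertain. Ermap, with 5.53 on untreated replicate 3, was not well above background there. The order of Aqp1 and Rhd over the harvests is that of the stromal sum given above, and the part of stromal RNA in them was not tested. The β-globin gene Hbb-bt, which has near-identical copies that can share its probe, had 3866, 1927 and 952 after TGF-β1 and 4749, 1949 and 1022 untreated (adjusted p = 0.00891). Hemgn, a nuclear protein of erythroid cells and progenitors, had 1000, 823 and 473 after TGF-β1 and 1774, 1392 and 683 untreated (adjusted p = 0.0392). Hbb-bt and Hemgn were highest in replicate 1 and the stromal sum in replicate 2, and the part of stromal RNA in these 2 genes was not tested either. Gzmb, a granule protease of mast cells and cytotoxic lymphocytes, had 1562, 1533 and 264 after TGF-β1 and 3260, 2377 and 497 untreated (adjusted p = 0.00521). It was lower after TGF-β1 in each pair (-1.06, -0.63 and -0.91) and did not pass (log2 change -0.87, SE 0.94, adjusted p = 1; 0.0902 with the block). Il1rl1, the IL-33 receptor, had 262, 501 and 207 after TGF-β1 and 258, 521 and 207 untreated, with replicate 2 highest in each group (F test adjusted p = 0.0232). F13a1, a clotting factor gene of megakaryocytes and macrophages, was higher in replicates 2 and 3 in both groups (adjusted p = 0.0338).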
